A study of Mus musculus with 20 samples.

Results

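The 8 serotonin receptor genes Htr1a, Htr1f, Htr2a, Htr2c, Htr3a, Htr4, Htr5a and Htr7 were described in RNA from mouse cortex, in whole lysate and in ribosome-bound RNA of the same animals. The genes were taken by name, as receptors of cortical neurons, and matched to the Ensembl identifiers of a table of 25317 genes. A gene was to be dropped if its mean fell below 1 CPM (read counts scaled for the size and composition of each library) over the 16 libraries compared. All 8 passed, with means from 1.51 CPM for Htr4 to 42.5 CPM for Htr1a. The table also holds 6 other serotonin receptors, Htr1b, Htr1d, Htr2b, Htr3b, Htr5b and Htr6.

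The animals were C57BL/6 mice aged 3 months, with both copies of Foxp2 (wild type) or heterozygous for a deletion that the series describes as cortical. Foxp2 encodes a forkhead transcription factor. Cortical hemispheres of 1 animal were lysed per sample, and ribosomes with a GFP tag were pulled down with an anti-GFP serum, a method called bacTRAP (here IP). The Input is lysate taken just before the pull-down. Tagged ribosomes were pulled down in the same way in both genotypes. Which cells carry the tag, which promoter drives it, and how the deletion was limited to cortex are not given in the sources used here. Libraries of both fractions came from 5 wild-type animals (wt734, wt736, wt785, wtBT13, wtBT14) and 3 heterozygotes (het729, het786, hetBT13).

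Serotonin released by axons from the brainstem raphe nuclei reaches all layers of the cortex and acts on several receptor families. Receptors of the Htr1 and Htr5 families couple to Gi/o proteins, which lower cyclic AMP and open potassium channels. Htr2 receptors couple to Gq and phospholipase C, Htr4 and Htr7 couple to Gs and raise cyclic AMP, and Htr3a forms a cation channel that serotonin opens directly. In cortex, Htr1a and Htr2a are known from pyramidal neurons, where they act against each other on excitability, and Htr3a is known as the mark of a class of inhibitory interneurons.

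Total counts ran from 2689544 to 5754169 over the 20 libraries of the table. Foxp2 was lower on average in heterozygotes, at 28.4 ± 3.57 against 47.9 ± 11.3 CPM in Input (SD, n = 3 and 5), where the groups did not overlap, and at 47.4 ± 13.1 against 71.1 ± 21.7 CPM in IP, where they did. It was not called by edgeR in either fraction (adjusted p = 0.501 and 0.981). RNA encoded on mitochondrial DNA took 0.928% to 1.86% of counts in the Input libraries compared and 0.0616% to 0.127% in 7 IP libraries. The IP of het729 stood apart at 0.398%. Animals named with BT and a number differed from those with a number alone in 97 genes in IP and 813 in Input, with genotype as a covariate, and receptor values are given within both forms of name further on. Glutamatergic markers of cortex were present in every library, among them Tbr1 at 41.1 ± 6.96 CPM in wild-type Input (SD, n = 5), but so were genes best known from striatum, such as Adora2a at 78.4 ± 12.1 CPM in the same libraries.

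The 5′ flanks of the 3 receptors called between IP and Input in wild types are shown first, of which Htr7 was called narrowly and not in heterozygotes. These flanks identify the loci of the 3 receptors. They come from RefSeq windows of 250 bases before the gene start on GRCm38.p6, of which 6 of the 8 receptors had one. Only bases outside the annotated gene are printed, 5′ to 3′ on the strand of the gene. Capitals mark the GC box GGGCGG. Htr1a is read from chr13:105443443-105443638 on the plus strand, Htr2c from chrX:146962263-146962512 on the plus strand and Htr7 from chr19:36057508-36057610 on the minus strand.
Htr1a: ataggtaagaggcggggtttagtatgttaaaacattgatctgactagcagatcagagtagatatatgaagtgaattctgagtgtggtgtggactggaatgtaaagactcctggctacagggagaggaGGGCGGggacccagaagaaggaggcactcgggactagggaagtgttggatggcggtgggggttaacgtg
Htr2c: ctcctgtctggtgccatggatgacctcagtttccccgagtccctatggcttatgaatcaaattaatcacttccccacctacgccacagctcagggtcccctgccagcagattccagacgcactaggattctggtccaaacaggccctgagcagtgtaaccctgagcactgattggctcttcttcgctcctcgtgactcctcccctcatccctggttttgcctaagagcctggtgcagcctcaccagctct
Htr7: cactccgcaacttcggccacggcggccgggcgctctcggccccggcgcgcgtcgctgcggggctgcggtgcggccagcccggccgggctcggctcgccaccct

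Base composition was taken over the whole windows of 250 bases, which include bases inside the annotated gene that are not printed (54 for Htr1a, 147 for Htr7 and 0 for Htr2c). The Htr7 window held 82.0% G and C with 41 CpG pairs, against 50.4% with 6 pairs for Htr1a and 55.6% with 5 pairs for Htr2c. The median over 32851 promoters was 52.4% with 6 pairs. GGGCGG, searched on both strands, was in the windows of Htr1a and Htr2a and in 32.7% of all promoters. Neither the TATA box TATAAA (12.4% of all promoters), the forkhead letters TGTTTAC (3.17%) nor the cyclic AMP response element TGACGTCA (1.55%) was in any of the 6 windows.

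Levels of different genes were compared per length, as CPM per kilobase of the merged exons of each gene. On this scale Htr1a was first of the 8 receptors in each of the 16 libraries. In wild types its level was 5.05 ± 0.579 CPM per kilobase in Input and 13.6 ± 4.38 in IP (SD, n = 5). It made up 26.4% ± 1.48 of the summed level of the 8 receptors in wild-type Input and 45.1% ± 7.50 in wild-type IP, and 27.9% ± 2.71 and 47.7% ± 2.44 in heterozygotes (SD, n = 3). The 6 other serotonin receptors are outside this sum and the order below, though Htr5b was at 2.14 ± 0.657 CPM per kilobase in wild-type IP.

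In wild types Htr7, Htr3a and Htr1f followed Htr1a and could not be ordered among themselves. In Input their levels were 3.25 ± 0.491, 3.38 ± 0.392 and 2.46 ± 0.580 CPM per kilobase (SD, n = 5), and the ranges of neighbours overlapped. Htr2c stood beside them in wild-type Input at 2.31 ± 0.340 CPM per kilobase, and its range overlapped that of Htr1f. In wild-type IP, Htr2c was at 1.32 ± 0.141, below Htr5a at 1.73 ± 0.563 in 3 of 5 libraries, so their places in the order were not separated. Htr2a and Htr4 were last, at 0.875 ± 0.431 and 0.289 ± 0.198 CPM per kilobase in wild-type Input. In the IP of wild types neither Htr2a against Htr2c nor Htr4 against Htr2a overlapped, and in the heterozygous IP Htr2a and Htr4 did. In heterozygous Input even Htr1a and the next receptor, Htr3a, had overlapping ranges over the 3 animals.

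**Figure D1:**
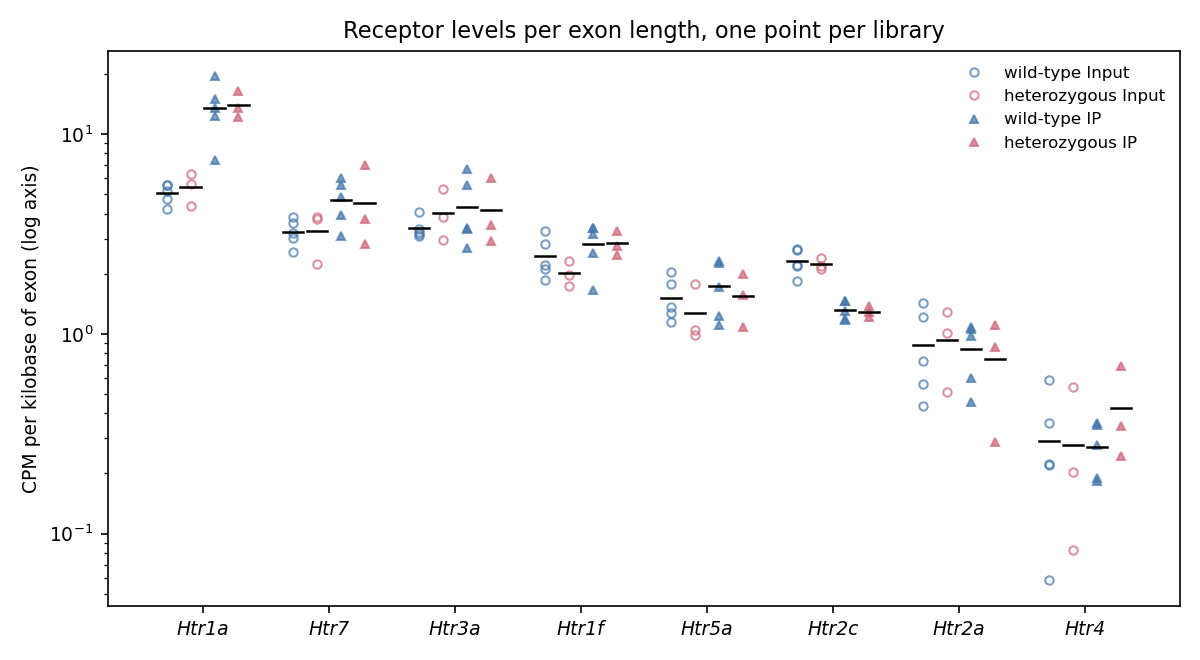
Level of the 8 receptors per kilobase of exon (log axis), 1 point per library, open circles for Input and triangles for IP, blue for wild type and red for heterozygotes, with a bar at the mean of each group. Htr1a lies above the other receptors in IP, with wild-type libraries from 7.46 to 19.6 CPM per kilobase, and Htr4 has the lowest mean in each group. In the IP of het729 Htr2a lies below Htr4.

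Htr1a encodes the Gi/o-coupled receptor that mediates the inhibitory action of serotonin on pyramidal neurons and is also the autoreceptor of raphe neurons. It was higher in ribosome-bound RNA than in lysate in every animal. Wild-type Input held 23.2, 21.3, 24.8, 18.9 and 25.1 CPM (wt734, wt736, wt785, wtBT13 and wtBT14, the order of animals kept from here on), and IP of the same animals held 33.5, 55.0, 60.7, 87.7 and 67.2 CPM. Heterozygous Input held 28.5, 19.6 and 25.3 CPM (het729, het786 and hetBT13), and their IP held 54.7, 60.6 and 73.7 CPM. Each of the 8 IP libraries was thus above each of the 8 Input libraries, with wt734 lowest and wtBT13 highest in IP.

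The IP over Input fold of Htr1a was 2.58 in wild types (95% interval 2.03 to 3.29, log2 1.37, SE 0.17, edgeR adjusted p = 2.05e-06) and 2.54 in heterozygotes (1.86 to 3.48, log2 1.35, SE 0.22, adjusted p = 7.47e-05). Among all genes tested, 98.5% had a lower log2 fold change in wild types. The fold within single animals ran from 1.43 in wt734 to 4.58 in wtBT13 (exact permutation test over sign flips, two-sided, p = 0.0078125, the smallest that 8 animals allow). For a gene to be higher in IP in all 8 animals was common, at 22.5% of genes. The gene is a single exon at chr13:105443639-105448122 (plus strand, mm10) and no annotated gene overlaps it.

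The other Gi/o-coupled receptors, Htr1f and Htr5a, did not pass the test between IP and Input. Htr1f, on chr16:64924729-65105854, encodes a receptor known as a target of migraine drugs. In Input it was at 5.46, 7.29, 8.48, 5.72 and 4.82 CPM in wt734, wt736, wt785, wtBT13 and wtBT14, and at 5.06, 5.98 and 4.49 CPM in het729, het786 and hetBT13. In IP it was at 8.71, 8.79, 8.13, 4.29 and 6.52 CPM in the wild types and 7.12, 8.44 and 6.38 in the heterozygotes. It was higher in IP in 6 of 8 animals, wt785 and wtBT13 being the exceptions. The folds of the 3 heterozygotes ran from 1.34 to 1.37 and those of wild types from 0.752 to 1.55. Heterozygous Input held 11 to 19 counts per library, too few to read the closeness of the 3 folds as a result. The fitted log2 fold change was 0.20 in wild types (95% interval -0.23 to 0.63, adjusted p = 0.434) and 0.50 in heterozygotes (-0.09 to 1.08, adjusted p = 0.157), and the edgeR test of the difference gave an adjusted p of 0.999975.

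Htr5a, on chr5:27842149-27855088, encodes a Gi/o-coupled receptor found mainly in the nervous system. Its Input levels were 9.55, 7.29, 6.14, 6.87 and 10.9 CPM in the wild types, in the same order of animals, and 9.58, 5.65 and 5.31 in the heterozygotes. Its IP levels were 5.98, 9.27, 6.63, 12.2 and 12.5 CPM in wild types and 8.37, 5.81 and 10.7 in heterozygotes. The fractions overlapped in both genotypes, and the within-animal fold ran from 0.626 in wt734 to 1.90 in hetBT13. The fitted log2 fold change was 0.16 in wild types (-0.29 to 0.61, adjusted p = 0.544) and 0.24 in heterozygotes (-0.38 to 0.85, adjusted p = 0.534).

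Of the Gq-coupled receptors, Htr2c was called in both genotypes and Htr2a in neither, and the difference between them was not tested. Htr2c, on chrX:146962513-147197277 (plus strand), encodes a receptor of neurons that the epithelium of the choroid plexus also expresses strongly, and was lower in IP than in Input in every animal. Wild-type Input held 20.7, 20.5, 24.6, 17.2 and 24.8 CPM in wt734, wt736, wt785, wtBT13 and wtBT14, and their IP held 12.1, 11.0, 13.7, 13.6 and 11.0 CPM. Heterozygous Input held 20.5, 22.3 and 19.6 CPM in het729, het786 and hetBT13, against 12.8, 12 and 11.4 CPM in IP. No IP library reached the lowest Input library. Relative to its mean it had the narrowest spread of the 8 receptors in IP, at 12.3 ± 1.31 CPM in wild types (SD, n = 5) and 12.1 ± 0.720 in heterozygotes (n = 3).

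The fold of Htr2c was 0.571 in wild types (0.462 to 0.705, log2 -0.81, SE 0.15, edgeR adjusted p = 8.26e-05) and 0.582 in heterozygotes (0.441 to 0.768, log2 -0.78, SE 0.19, adjusted p = 0.00238). Among genes tested, 22.8% were lower in IP in all 8 animals, as Htr2c was, and 9.86% had a lower log2 fold change in wild types. Its introns host 8 small RNA genes, and none touches its exons.

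Choroid plexus RNA varied widely between the lysates. Ttr (transthyretin), the most abundant gene of that epithelium, ran from 1.62 CPM in wt736 to 112 in wtBT13 over the Input libraries, and was at 105 in het786 and 28.2 in hetBT13. The 8 choroid plexus genes summed to 11.2 to 132 CPM in wild-type Input and 6.83 to 37.7 in wild-type IP, and to 14.1 to 121 and 10.5 to 15.8 CPM in heterozygotes, where 1 of them was at 0 in all IP libraries. The part of choroid plexus RNA in the Htr2c values was not tested.

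Htr2a, on chr14:74640840-74709494 (plus strand), encodes the Gq-coupled receptor on which psychedelic drugs act. It was low, and its values in the fractions overlapped. Input held 6.82, 2.43, 4.09, 3.15 and 8.04 CPM in wt734, wt736, wt785, wtBT13 and wtBT14, and 7.19, 5.65 and 2.86 in the heterozygotes. IP held 5.46, 3.36, 2.57, 6.10 and 5.96 CPM in the wild types and 1.60, 6.19 and 4.83 in het729, het786 and hetBT13. The gene was higher in IP in 4 of 8 animals, and the low value of het729, 9 counts, gave the lowest within-animal fold, 0.239. The log2 fold change was -0.04 in wild types (-0.71 to 0.63, edgeR adjusted p = 0.925) and -0.42 in heterozygotes (-1.29 to 0.46, adjusted p = 0.433). Without het729, the IP library with the most mitochondrial RNA, the heterozygous value was 0.36.

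Htr7 (chr19:35958734-36057507, minus strand), a Gs-coupled receptor, is known for roles in circadian rhythm and sleep. Its within-animal fold of IP over Input, taken with 1 count added, was above 1 in 7 of 8 animals. In the exception, het729, CPM without the added count was 12.77 in Input and 12.82 in IP. Wild-type Input held 13.1, 12.1, 8.77, 10.3 and 10.9 CPM in wt734, wt736, wt785, wtBT13 and wtBT14, and their IP held 13.3, 18.9, 10.5, 16.5 and 20.5 CPM. Heterozygous Input held 12.8, 7.64 and 13.1 CPM in het729, het786 and hetBT13, and IP held 12.8, 9.57 and 23.8. The fractions overlapped, since the IP of wt785 and het786 lay below the Input of wt734, het729 and hetBT13. In wt734 and het729 the level was nearly the same in both fractions (folds of 1.01 and 0.997). The folds of the 3 BT-named animals were 1.58, 1.84 and 1.78.

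The fitted fold of Htr7 was 1.42 in wild types (1.11 to 1.82, log2 0.51, SE 0.17, edgeR adjusted p = 0.0166) and 1.32 in heterozygotes (0.951 to 1.83, log2 0.40, SE 0.23, adjusted p = 0.157). The exact permutation test over sign flips of the log2 ratios of the 8 animals, with 1 count added, gave p = 0.0156. The wild-type call is a narrow one: it ended without wt736 (adjusted p = 0.0585), wtBT13 (0.0531) or wtBT14 (0.0779), with DESeq2 (0.0602) and with no block for the animal (0.0599).

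Htr4, on chromosome 18, encodes a Gs-coupled receptor known for promoting transmitter release and memory. It was too low for the model, with 1 to 19 counts per library, and is given by its values alone. Input held 1.09, 1.08, 1.75, 0.286 and 2.89 CPM in the wild types and 2.66, 0.997 and 0.409 in the heterozygotes. IP held 1.37, 1.76, 1.71, 0.904 and 0.931 CPM in the wild types and 3.38, 1.69 and 1.21 in the heterozygotes. It was higher in IP in 6 of 8 animals (exact permutation p = 0.5), and a difference was not detectable at this depth.

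Htr3a, on chr9:48899213-48911099 (minus strand), encodes the subunit of the serotonin-gated channel. Input held 8.46, 7.02, 6.43, 6.58 and 6.75 CPM in wt734, wt736, wt785, wtBT13 and wtBT14, and 6.12, 7.98 and 11.0 in het729, het786 and hetBT13. IP held 7.0, 5.59, 7.06, 11.5 and 14.0 CPM in the wild types and 6.06, 7.32 and 12.6 in the heterozygotes. The 3 highest IP values all belonged to BT-named animals. Between fractions the log2 fold change was 0.29 in wild types (-0.16 to 0.74, edgeR adjusted p = 0.264) and 0.03 in heterozygotes (-0.55 to 0.61, adjusted p = 0.947), and the sign of the heterozygous value depended on the scaling. The span of an antisense gene, Gm32335, overlaps exons of Htr3a. Whether exons of both genes overlap was not checked. Where they do, libraries that do not mark strand cannot tell the reads of the pair apart.

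**Figure D2:**
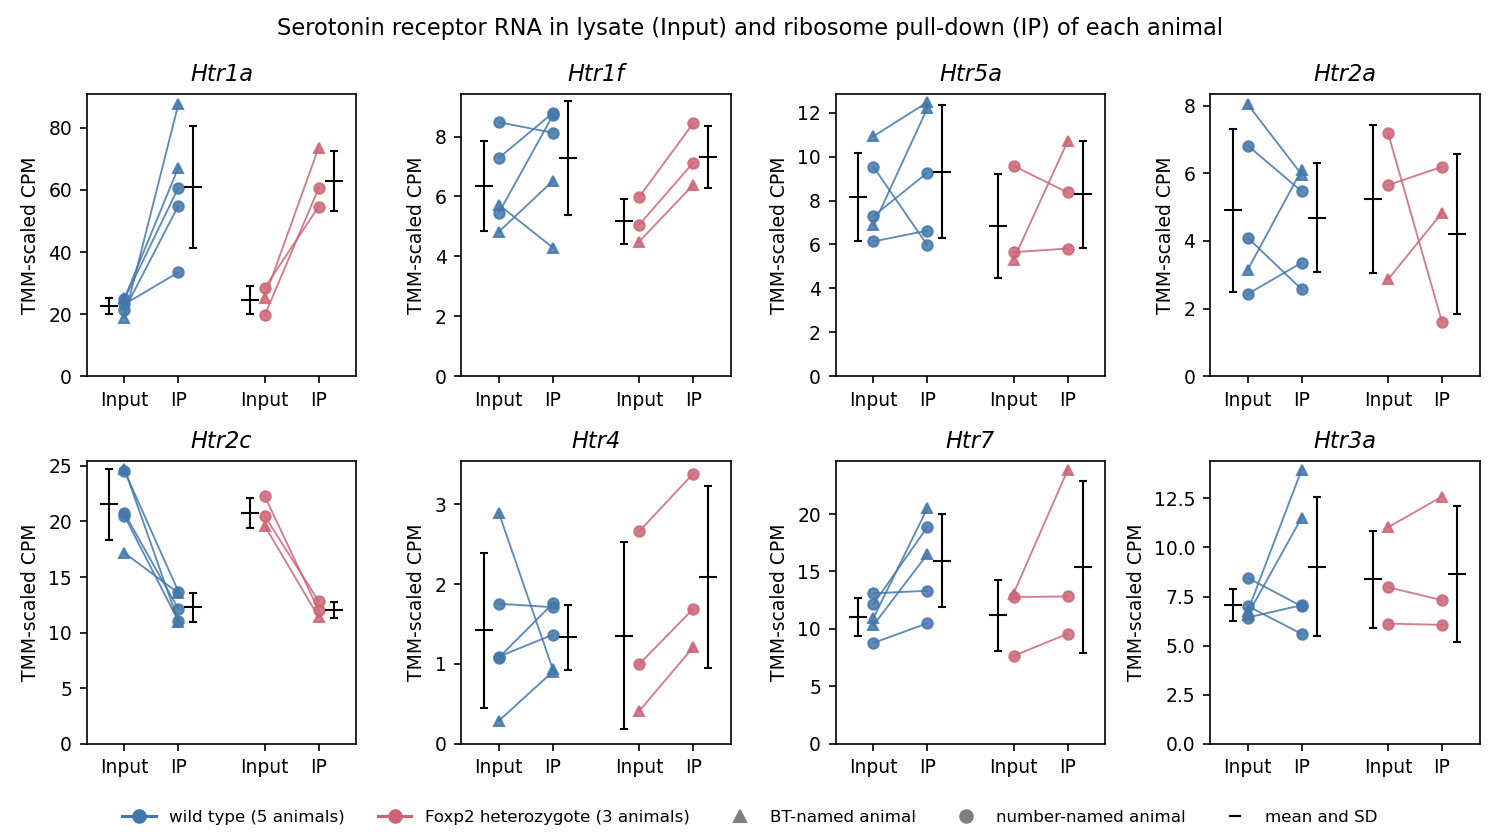
TMM-scaled CPM of each receptor in Input and IP, 1 panel per receptor, with a line joining both libraries of an animal, triangles for BT-named and circles for number-named animals, blue for 5 wild types and red for 3 heterozygotes, and bars for mean and SD. Lines of Htr1a rise in all 8 animals, lines of Htr2c fall in all 8, lines of Htr7 rise or stay nearly level, and the other receptors cross or spread.

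In all, 3 of the 7 receptors tested were called between wild-type IP and Input, 2 higher and 1 lower, beside 54.1% of all genes tested (28.5% higher and 25.6% lower). In heterozygotes 2 of 7 were called, 1 higher and 1 lower, beside 44.8% of all genes (22.6% higher and 22.1% lower). These shares do not set the receptors apart from other genes. The median log2 fold change of the 7 receptors was 0.20 in wild types and 0.24 in heterozygotes, against 0.03 and 0.04 over all genes. The difference between the genotypes passed for 0 of 7 receptors, beside 0.0% of all genes, with 454 of 14797 genes at an unadjusted p below 0.05. DESeq2 and limma-voom also called 0 genes for this difference.

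Heterozygous and wild-type animals did not differ detectably in any of the receptors. In IP 0 of 7 tested receptors were called by edgeR, beside 0.0% of 14755 genes, of which 604 had an unadjusted p below 0.05. DESeq2 called 1 gene in IP and limma-voom 0, with 0 receptors called by either. In Input 0 of 7 were called, beside 0.0% of 13870 genes, 979 of them with an unadjusted p below 0.05. Neither limma-voom nor DESeq2 called a gene there (0 and 0). None of the 7 receptors had an unadjusted p below 0.05 in either fraction. The values of all 8 overlapped between genotypes in both fractions, where 3.56% of genes in IP and 5.35% in Input did not overlap. In these bulk samples, fewer cells of a type and less RNA per cell cannot be told apart.

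The intervals show what the comparison could have missed. For Htr2c the heterozygous over wild-type fold was 0.985 in IP (95% interval 0.757 to 1.28) and 0.972 in Input (0.771 to 1.23). For Htr1a it was 1.04 in IP (0.742 to 1.45) and 1.09 in Input (0.864 to 1.37). Htr7 had 0.966 (0.631 to 1.48) and 1.01 (0.740 to 1.38), and Htr1f had 0.995 (0.679 to 1.46) and 0.821 (0.558 to 1.21). On the log2 scale intervals in IP were wider for the rest, while in Input that of Htr1f was wider than those of Htr3a and Htr5a. Htr3a had 0.965 (0.590 to 1.58) and 1.16 (0.822 to 1.63). Htr5a had 0.895 (0.577 to 1.39) and 0.874 (0.596 to 1.28). The widest belonged to Htr2a, at 0.896 (0.488 to 1.64) in IP and 1.13 (0.660 to 1.93) in Input. For Htr4 the exact permutation test of 3 against 5 animals gave p = 0.286 in IP and 1.0 in Input, where the smallest p the design allows is 0.0179.

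Within the forms of name the genotype difference of mean log2 CPM took both signs for several receptors, with 1 heterozygote against 2 wild types among BT-named animals and 2 against 3 among number-named ones. In IP it was -0.06 and 0.26 for Htr1a, 0.25 and -0.14 for Htr1f, -0.10 and 0.02 for Htr2c, and 0.37 and -0.31 for Htr7, BT-named animals first. In the same order it was -0.32 and -0.17 for Htr2a, -0.01 and 0.03 for Htr3a, -0.21 and -0.04 for Htr5a, and 0.30 and 0.54 for Htr4. In Input the largest gap between the forms was that of Htr2a, at -0.71 and 0.61, followed by Htr4 at -0.73 and 0.34 and Htr3a at 0.72 and -0.05. The others in Input were Htr1a at 0.22 and 0.04, Htr1f at -0.18 and -0.32, Htr2c at -0.06 and -0.03, Htr5a at -0.65 and -0.03, and Htr7 at 0.31 and -0.17. With 1 heterozygote in a form of name, no test was made within it.

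**Figure D3:**
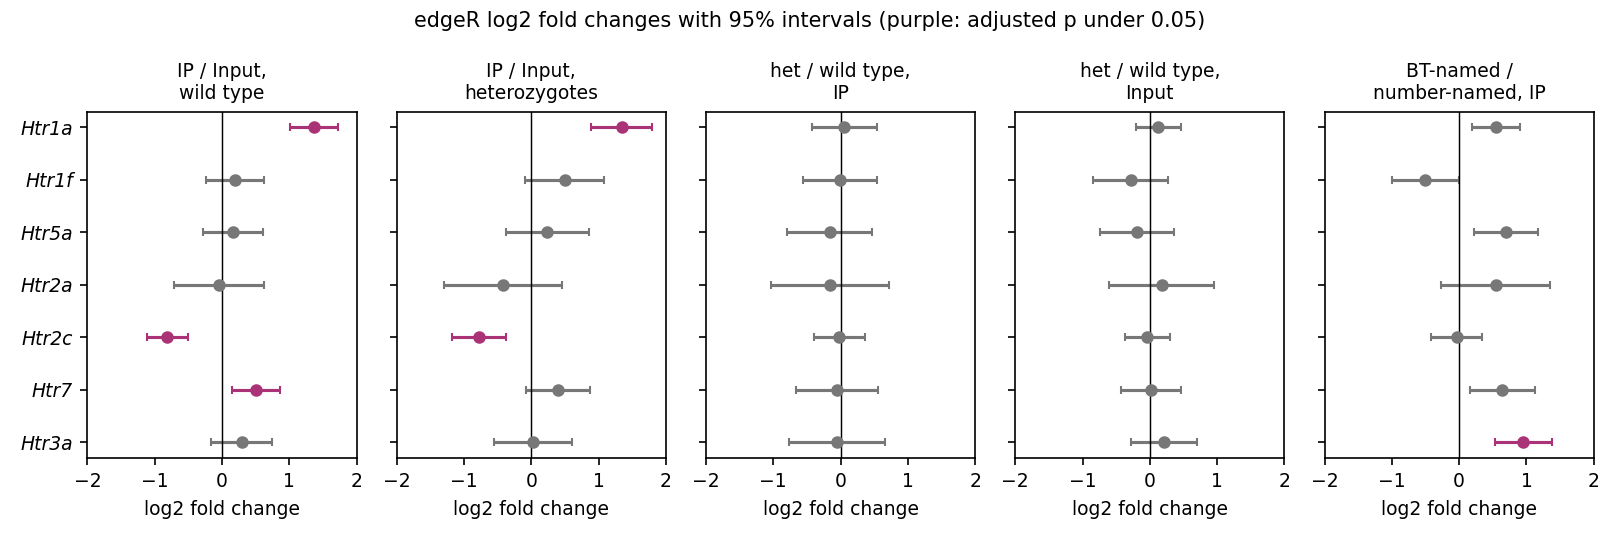
Log2 fold changes of the 7 tested receptors with 95% intervals from edgeR, for IP over Input in each genotype, heterozygous over wild type in each fraction, and BT-named over number-named animals in IP, purple where the adjusted p is below 0.05. Htr1a and Htr2c are called on opposite sides in both genotypes, while all genotype intervals include 0.

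Receptor levels in IP also differed with the form of the animals' names, and 1 receptor, Htr3a, passed the test. The sources used here do not say what the letters BT stand for, and the comparison of 3 BT-named with 5 number-named animals, with genotype as a covariate, was chosen after the data were seen. Htr3a in IP was at 12.6 CPM in hetBT13, 11.5 in wtBT13 and 14.0 in wtBT14, against 5.59 to 7.32 CPM in the number-named animals. The mean was 12.7 ± 1.23 (SD, n = 3) against 6.60 ± 0.741 CPM (n = 5), and the groups did not overlap. The log2 fold change was 0.95 (SE 0.20, edgeR adjusted p = 0.0499779), and Htr3a was the 1 receptor of 7 called, beside 0.657% of all genes (0.339% higher). The call ended with limma-voom (adjusted p = 0.0522) and without each animal in turn except het786 (0.071 to 0.23), while the log2 fold change stayed between 0.87 and 1.02. In Input the means were 8.12 ± 2.52 and 7.20 ± 0.996 CPM and overlapped.

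In the same comparison Htr1a and Htr5a were higher in BT-named IP libraries and Htr1f and Htr4 lower, without overlap and without a call. With Htr3a this made 5 of 8 receptors without overlap, beside 11.0% of all genes tested (4.98% higher and 6.0% lower). Htr1a was at 76.2 ± 10.4 against 52.9 ± 11.2 CPM (adjusted p = 0.138) and Htr5a at 11.8 ± 0.959 against 7.21 ± 1.53 (0.147). Htr1f was at 5.73 ± 1.25 against 8.24 ± 0.674 CPM (0.306), and Htr4, untested, at 1.01 ± 0.168 against 1.98 ± 0.799. Htr7 overlapped, at 20.3 ± 3.66 against 13.0 ± 3.62 CPM (0.178). DESeq2 called Htr1a (0.0468), and without the filter on low counts edgeR called Htr1a (0.0013) and Htr7 (0.0321) as well.

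In Input all 8 receptors overlapped between the forms of name, 0 of 7 were called beside 5.86% of all genes, and 0 had an unadjusted p below 0.05. Among cell type lists in IP, the 9 genes of layer 6 corticothalamic neurons summed to 643 to 747 CPM in BT-named and 841 to 988 in number-named animals, all 9 had a negative log2 fold change (median -0.32, against 0.00 over all genes) and 1 was called. The 13 genes of interneurons that carry Htr3a summed to 661 to 796 CPM in BT-named and 661 to 886 in number-named animals, with a median of 0.17 and 0 called. Layer 5 genes summed to 661 to 820 CPM in BT-named and 1033 to 1357 in number-named animals, without overlap (median -0.09, 1 of 8 called lower), and the sums of the other cell type lists overlapped. Choroid plexus genes had a positive log2 fold change in 4 of 4 cases (median 0.72), endothelial and mural genes in 4 of 5 (0.48) and other interneuron genes in 8 of 9 (0.20), with 0 called. The list of other interneurons includes the general inhibitory genes Gad1, Gad2 and Slc32a1, so it is not confined to interneurons without Htr3a. In Input, by contrast, 7 of the 9 layer 6 corticothalamic genes had a positive log2 fold change (median 0.13, against 0.01 over all genes). Of the 9, 2 were called higher there and 0 lower. Layer 5 genes were positive in 6 of 8 cases in Input (median 0.08), with 0 called higher and 1 lower. The part of the cell type lists in the receptor values was not tested.

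**Figure D4:**
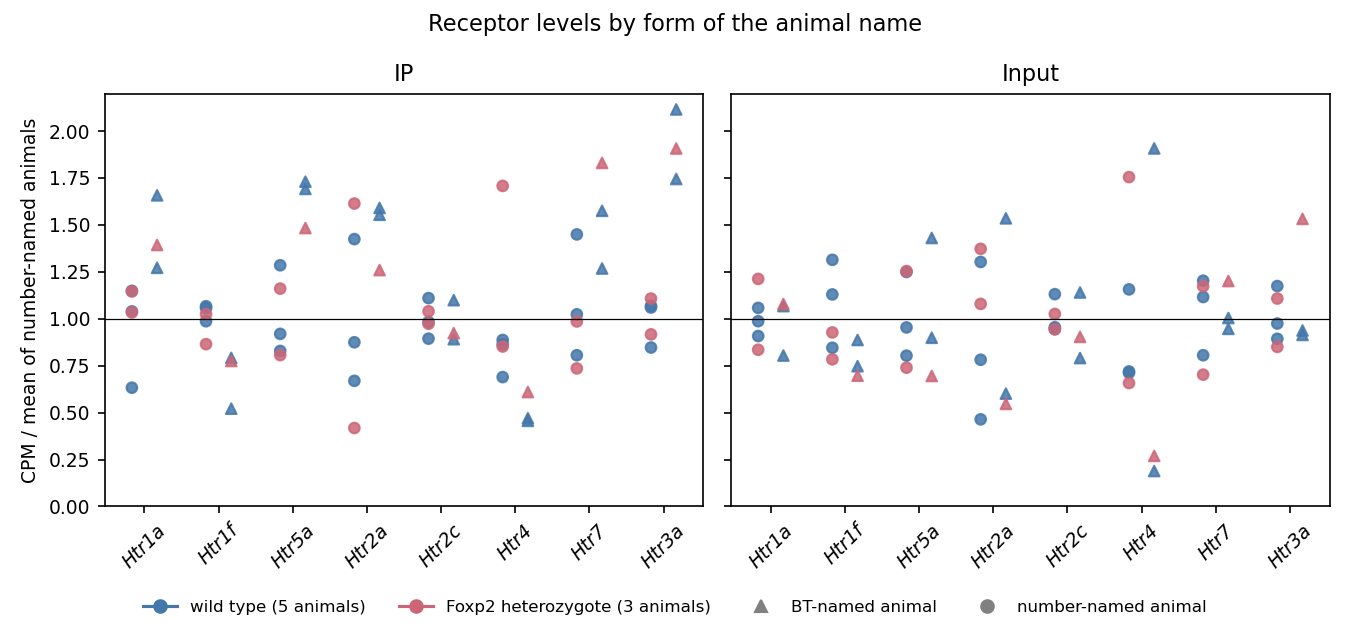
CPM of each receptor divided by the mean of the number-named animals, in IP (left) and Input (right), triangles for BT-named and circles for number-named animals, blue for wild type and red for heterozygotes. In IP the BT-named animals lie above the others for Htr1a, Htr5a and Htr3a and below them for Htr1f and Htr4, and in Input the 2 kinds of symbol mix.

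Of the serotonin receptors outside the 8, Htr1d and Htr5b were the ones called between fractions in wild types. Htr1d, a Gi/o-coupled receptor known from axon terminals, was at 3.00, 7.29, 4.97, 7.73 and 4.50 CPM in wild-type Input and at 0.854, 0.959, 1.07, 0 and 1.30 CPM in IP. Its fold was 0.163 (0.0913 to 0.291, log2 -2.62, SE 0.40, edgeR adjusted p = 1.22e-05). In heterozygotes the fold was 0.554 (0.282 to 1.09, adjusted p = 0.145), from 5.85, 3.32 and 3.27 CPM in Input and 2.67, 2.44 and 1.73 in IP. In IP, all 3 heterozygotes were above all 5 wild types (exact permutation p = 0.0536), from 10 to 15 counts against 0 to 7, and it was too low there for the model. Of the 14755 genes tested in IP, 3.56% did not overlap between genotypes in either direction. The difference of the 2 folds of Htr1d had a log2 size of 1.76 (0.46 to 3.07) and an edgeR adjusted p of 0.999975 (unadjusted 0.0102).

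Htr5b, the paralogue of Htr5a, was higher in IP in all 8 animals, with a fold of 2.45 in wild types (1.44 to 4.18, edgeR adjusted p = 0.0054) and 3.19 in heterozygotes (1.59 to 6.37, adjusted p = 0.00734). Its levels were 1.72 ± 1.30 CPM in wild-type Input and 4.14 ± 1.27 in IP (SD, n = 5). Htr1b, another Gi/o-coupled receptor of axon terminals, was lower in IP in all 8 animals, and called in heterozygotes (fold 0.565, adjusted p = 0.0206) but not in wild types (0.754, adjusted p = 0.128). The span of an antisense gene overlaps exons of Htr1b, and overlap between exons of both was not checked. Htr6 was at 1.75 ± 0.371 CPM in heterozygous and 0.915 ± 0.280 in wild-type Input, with 2 to 7 counts per library (exact permutation p = 0.0179, the smallest the design allows). Its highest wild-type value, 1.35 CPM, was just above the lowest heterozygous one, 1.33. The test used log2 CPM with 1 count added, which reversed the order of these values, so its p rests on that added count. Htr2b and Htr3b had at most 4 counts in any library.

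The genes that carry the receptors' signals moved in both directions between wild-type Input and IP, where 28.5% of all genes tested were called higher and 25.6% lower (median log2 0.03). Of 12 genes downstream of Gq, 6 were called higher and 2 lower (median log2 0.41). Those of smallest p were the calcium release channel gene Itpr1, at 157 ± 18.8 CPM in Input and 336 ± 33.4 in IP (SD, n = 5), and the phospholipase C genes Plcb4, at 44.4 ± 6.39 and 94.1 ± 19.4, and Plcb1, at 222 ± 22.7 and 386 ± 26.3. Of 14 genes downstream of Gi/o, 2 were called higher and 4 lower (median 0.09). Rgs4, which speeds the shut-off of G proteins, had 1179 ± 132 CPM in Input and 420 ± 31.0 in IP, and its relatives Rgs8 and Rgs19 had folds of 0.688 and 1.38.

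Of 19 genes downstream of Gs, 10 were called higher and 6 lower (median 0.27). For this and the next lists the shares over all genes were again 28.5% higher and 25.6% lower. Rapgef4, a cyclic AMP sensor, was at 636 ± 72.6 CPM in Input and 232 ± 10.0 in IP, and the regulatory subunit genes of protein kinase A, Prkar1a and Prkar1b, had folds of 0.574 and 0.559. Of 15 genes whose proteins bind or regulate serotonin receptors, 5 were higher and 4 lower (median 0.05). Mpdz, a scaffold that binds the tail of Htr2c, was at 16.6 ± 2.10 and 40.2 ± 3.67 CPM. Hes5 and Deaf1, transcription factors linked to Htr1a, had folds of 0.299 and 0.608. Of 5 tested genes of serotonin synthesis, transport and breakdown, the monoamine oxidases Maoa (fold 1.69) and Maob (1.25) were called higher and 0 lower. Tph2, the synthesis enzyme of raphe neurons, was at 3.13 ± 0.691 CPM in wild-type Input.

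None of these pathway lists had a called gene in either genotype comparison. Those of smallest p in IP were Plcb3 (fold 0.639), Mpdz (0.779), Tph2 (0.593), Adcy2 (0.755), Kcnj3 (0.923) and Htr5b (1.23), each with an edgeR adjusted p of 0.981. In Input they were Slc18a2 (0.578), Kcnj3 (0.772), Ric3 (0.773), Plcb4 (0.793), Prkacb (1.16) and Htr1b (1.34), with adjusted p from 0.634 to 0.72. Slc18a2, the vesicular transporter for monoamines, was at 10.7 ± 4.33 CPM in heterozygous and 19.3 ± 5.52 in wild-type Input.

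Cell type markers also differed between the fractions in wild types, again beside 28.5% of all genes called higher and 25.6% lower. Genes of layer 6 corticothalamic neurons were called higher in 5 of 9 cases and lower in 0 (median log2 0.81), led by Ntsr1 at 4.63 ± 0.823 CPM in Input and 39.5 ± 4.50 in IP. Layer 6b genes were higher in 4 of 6 cases and lower in 2 (median 0.52), and summed to 268 to 309 CPM in Input and 341 to 393 in IP. Hippocampal genes were higher in 2 of 5 cases and lower in 1 (median -0.14). Of 8 glutamatergic genes 6 were higher and 2, Camk2a and Nrgn, lower (median 0.48), and their summed level was 1704 to 2501 CPM in Input and 1909 to 2235 in IP. Markers of the interneurons that carry Htr3a were called lower in 10 of 13 cases and higher in 1 (median -0.56), with Vip (log2 -2.21) and Npy (-2.60) among the lower ones and Reln (2.19) the 1 higher. Astrocyte genes were lower in 9 of 10 cases and higher in 1 (median -1.01). Medians below 0 were also found for oligodendrocytes (5 of 8 lower and 1 higher, -1.42), microglia (6 of 8 lower, -1.30), other interneurons (8 of 9 lower, -1.12) and striatum (7 of 8 lower, -1.18). With Gad1, Gad2 and Slc32a1 in it, the list of other interneurons is not a class apart from the Htr3a interneurons. Layer 5 genes were lower in 5 of 8 cases and higher in 1 (-0.73), and upper layer genes lower in 4 of 8 and higher in 2 (-0.46). Striatal genes summed to 1734 to 2216 CPM in wild-type Input and 744 to 959 in IP. Summed levels in wild types were 1435 to 1595 CPM in Input and 694 to 886 in IP for the Htr3a interneuron list. For the layer 6 corticothalamic list they were 468 to 559 CPM in Input and 643 to 960 in IP. The part of cell makeup, striatal RNA included, in the values of Htr1a and Htr2c was not tested.

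**Figure D5:**
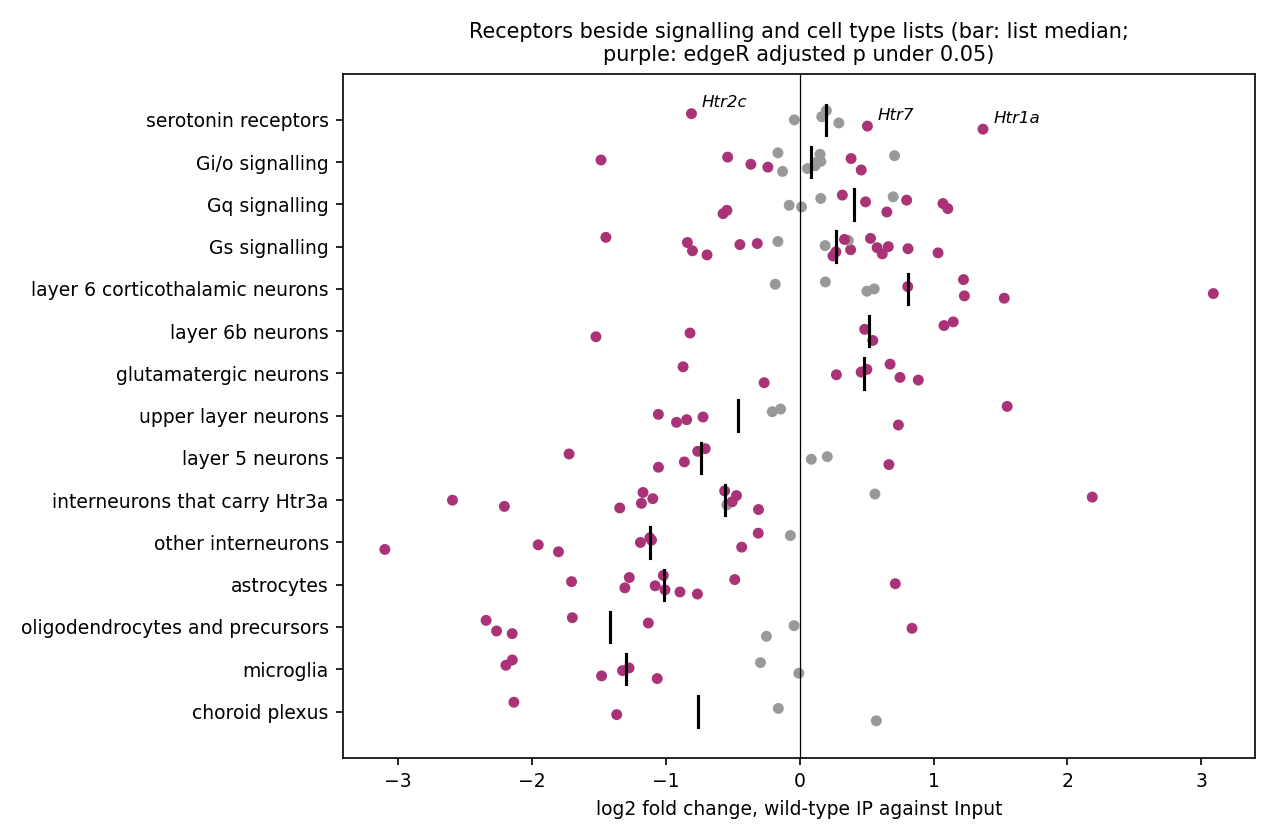
Log2 fold changes of wild-type IP over Input for the 7 tested receptors and for genes of signalling and cell type lists, 1 point per gene, purple where the edgeR adjusted p is below 0.05, with a bar at each list's median. Htr1a lies among the layer 6 corticothalamic genes with the larger changes, Htr2c at -0.81, Htr7 is called at 0.51, and the 4 receptors in grey lie between -0.04 and 0.29.

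The genes most like each receptor were taken by Pearson correlation of log2 CPM over the 16 libraries, among 12235 genes with a mean of at least 5 CPM. The libraries share animals and fall into IP and Input, so r mostly follows the gap between fractions where there is one. For Htr1a the nearest were Vwc2l (r = 0.960), Amn (0.960) and Cmc2 (0.955), and for Htr2c they were Slc38a2 (0.965), Rtl8b (0.964) and Rtl8a (0.962). The highest r was lower for the other receptors, with Padi2 for Htr3a (0.899), Slitrk2 for Htr5a (0.871), Dhx35 for Htr7 (0.865) and Msl2 for Htr1f (0.841). Among the receptors themselves, Htr5a and Htr7 had r = 0.69 over the 16 libraries and 0.70 after group means were removed. Htr1a and Htr2c had r = -0.83, which became 0.24 after group means were removed. Other pairs reached a like size once group means were removed, at -0.70 for Htr1f and Htr5a, 0.66 for Htr1a and Htr5a and 0.64 for Htr2c and Htr4. Removing group means leaves differences by form of name in place. In IP, BT-named over number-named log2 fold changes were 0.70 for Htr5a and 0.64 for Htr7. The part of the form of name in these r values was not tested.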

How the data were processed

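The deposited table holds whole-number counts of reads by Ensembl gene for 20 Smart-seq2 libraries. The submitters' processing notes name HTSeq and mm10, while the sources used here name no annotation release, aligner or strand setting. Smart-seq2 marks neither strand nor single molecules. Of 25317 identifiers 24873 matched a symbol and 444 did not. Members and lists were chosen with earlier results of these data known, and the lists are from general knowledge.

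Counts were tested in R 4.3.3 with edgeR 4.0.16 (filterByExpr with a count minimum of 10, TMM, robust quasi-likelihood F test, Benjamini-Hochberg adjusted p below 0.05 over all genes tested). IP against Input was fitted over 16 libraries with the animal as a block, and genotype within each fraction over 3 and 5 libraries without a block. The 4 heterozygous libraries of het730 and hetBT14, titled IX or IXX, were left out. Both libraries of an animal come from 1 lysate per the labels' protocols. After group means were removed, they correlated with r from 0.0562 to 0.214 over 14797 genes, above any other animal of the genotype in 7 of 8 animals. The exception was wtBT14 (0.0814 against 0.174). Htr4 did not pass the filter. CPM are TMM-scaled, errors are SD over animals, and exact permutation tests are two-sided. Log2 CPM, within-animal folds and exact permutation tests use a prior count of 1, not scaled to library size. Exon lengths are from GENCODE M21 (GRCm38). Alternatives were DESeq2 1.42.0, limma-voom 3.58.1, other scalings and filters, and animals left out in turn.

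Named were all serotonin receptors, Foxp2, of each pathway list up to 3 genes of smallest p in wild-type IP against Input and 1 in each genotype comparison, and the 3 genes most like each receptor with a mean of at least 5 CPM. Other genes (Ttr, Tbr1, Adora2a, Ntsr1, Camk2a, Nrgn, Vip, Npy, Reln) were chosen as known markers after their values were seen. Gad1, Gad2 and Slc32a1 are named only as members of a list.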

Additional observations from a re-analysis of the deposited data

Results flagged for a closer look

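Htr3a in the Input of wt734, at 8.46 CPM, lay apart from the other 4 wild-type Input libraries, which held 6.43 to 7.02 CPM. The gap was 0.7103 of the range of the group, just past the limit for 5 libraries, in 1 of 16 such checks of a receptor in a wild-type group. Chance gives about 1 such case in 20.

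The 4 libraries titled IX or IXX, in no comparison of the main tests, held Htr1f above the wild-type Input libraries in 1 animal. On a scale set over all 20 libraries, hetBT14 had 8.49 CPM in IX and 8.44 in IXX, against 8.36 at most in wild-type Input. Both libraries come from 1 animal, and its 47 and 30 counts leave the gap within counting error.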

How the results depend on the processing

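The number of receptors called was 3 in wild-type IP against Input (2 to 3 over the alternatives), 2 in heterozygotes (2 throughout) and 0 for the difference and both genotype comparisons. With no replicate block for the animal, 2 receptors were called in wild types, and Htr7 had a log2 fold change of 0.53 and an adjusted p of 0.0599. In IP, BT-named against number-named animals gave 1 call, 0 with limma-voom, 3 without the filter and 0 to 1 with an animal left out. Over all genes this comparison gave 97 calls, 0 without wtBT14 and 792 without the filter. Genotype gave 0 calls over all genes in Input and 28 without the filter, and the difference between fractions 0 and 11. Of 111 alternative values in wild-type IP against Input, 102 kept direction and side of the threshold and 5, all of Htr7, lost the call. In the genotype comparisons 27 of 126 values in IP and 18 of 130 in Input took the other sign, none called. The cause was not tested.

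Signs that turned, as log2 fold changes, were these. Heterozygous IP against Input: Htr3a -0.0039 with RLE and -0.067 with upper-quartile scaling. Genotype in IP: Htr1f 0.0087 with limma-voom, Htr3a 0.0097 with the form of name as covariate. Within BT-named animals the values were -0.060 for Htr1a, 0.25 for Htr1f and 0.37 for Htr7, and within number-named ones 0.021 for Htr2c and 0.031 for Htr3a. Genotype in Input with the IX and IXX libraries: Htr1f 0.068, Htr2a -0.041, Htr2c 0.081 and Htr7 -0.044. Also in Input, Htr7 was -0.0067 with limma-voom, Htr2a -0.71 within BT-named, and Htr3a -0.049 and Htr7 -0.17 within number-named animals.

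With an animal left out, values crossed 0 in these ranges. Wild-type IP against Input: Htr2a -0.27 to 0.086, Htr5a -0.00015 to 0.37. Heterozygous: Htr2a -0.86 to 0.36, Htr3a -0.070 to 0.10, Htr5a -0.096 to 0.52. Their difference: Htr1a -0.22 to 0.21, Htr2a -0.82 to 0.41, Htr2c -0.059 to 0.14, Htr5a -0.26 to 0.37, Htr7 -0.37 to 0.12. Genotype in IP: Htr1a -0.11 to 0.22, Htr1f -0.14 to 0.082, Htr2a -0.53 to 0.23, Htr2c -0.070 to 0.019, Htr3a -0.43 to 0.17, Htr5a -0.39 to 0.038, Htr7 -0.51 to 0.20. Genotype in Input: Htr1a -0.022 to 0.26, Htr2a -0.15 to 0.41, Htr2c -0.13 to 0.0020, Htr3a -0.020 to 0.41, Htr7 -0.12 to 0.22. Form of name in IP: Htr2c -0.13 to 0.023, and in Input Htr1a -0.16 to 0.068, Htr2a -0.82 to 0.26, Htr2c -0.28 to 0.030, Htr3a -0.17 to 0.24, Htr5a -0.34 to 0.16, Htr7 -0.14 to 0.11.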

Other observations

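On the scale set over all 20 libraries, Htr2c had 30.4 and 23.2 CPM in the IX and IXX libraries of het730 and 21.9 and 24.5 in those of hetBT14. Htr1a had 24.5 and 19.9 CPM in het730 and 23.9 and 22.5 in hetBT14, and Htr7 10.1, 8.61, 10.5 and 11.5 CPM in the same order. Htr5a had 9.73, 9.50, 8.49 and 6.47 CPM, and Htr3a 6.34, 8.02, 6.69 and 7.87. Htr4 had 0.423 and 2.08 CPM in het730, from 1 and 7 counts, and 0.361 and 1.12 in hetBT14, and Htr2a had 2.96, 2.38, 5.78 and 3.94 CPM.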
